A study of Mus musculus with 3 samples.

Results

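The genes described here are 34 genes of mitosis and of the G2/M transition, the passage from the second growth phase of the cell cycle into mitosis. They were chosen by symbol from the deposited table, and 34 of 34 were found among its 55471 features, each on a single row. The RNA came from cultures of JC, an epithelial-like carcinoma line of the mouse mammary gland, in 3 populations with 1 library each. JC-WT carries the label WT for both genotype and treatment. JC-P, which the labels call parental, was taken from tumours of the mammary fat pad 14 days after injection, per the labels' protocols, although the treatment label of JC-P reads metastasis. JC-M3 carries the same treatment label, and all 3 populations have the genotype label WT. It was derived from JC-P by injecting cells into the tail vein and recovering lung lesions 28 days later, a cycle run for 3 rounds. How many animals the cells came from, and how dense the cultures were at harvest, is not given in the sources used here.

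Entry into mitosis is driven by the kinase CDK1 bound to cyclins A and B, which CDC25 phosphatases activate and the kinases PLK1 and Aurora A help to switch on. Chromosomes are then condensed, held by kinetochores on spindle microtubules and checked for attachment, until CDC20 and the ubiquitin-conjugating enzyme UBE2C let the anaphase-promoting complex destroy cyclin B and start chromosome separation. Most of these genes are transcribed in late S phase, G2 and mitosis under FOXM1, B-MYB and the MuvB complex, so in bulk RNA their level is widely used as a gauge of proliferation. In such bulk RNA, fewer dividing cells and less RNA per dividing cell cannot be told apart.

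The promoters are shown first because most of those searched hold a letter match to the cell cycle genes homology region (CHR). Such genes are known to be controlled together through this element, which MuvB complexes bind, often near CCAAT boxes, which the factor NF-Y binds. RefSeq promoter windows on GRCm38.p6, running from 250 bases before to 50 bases after a gene start, were matched by symbol for 27 of the 34 genes, in 29 windows because Ect2 and Prc1 have more than 1 start. The CHR was searched as TTTGAA and as TTCGAA, the CCAAT box as CCAAT, on both strands. TTTGAA occurred in 21 of 29 windows (72.4%), against 17.9% of all 32851 windows of the same length. The rarer TTCGAA occurred in 4 of 29 (13.8%), against 1.56%. A CCAAT box was present in 22 of 29 (75.9%), against 37.4%, and a CHR together with a CCAAT box in 20 of 29, against 7.52%. An E2F-like site (TTTGGCGC, TTTCGCGC, TTTCCCGC, TTTGCCGC or GGCGGGAA) was found in 1 of 29 (3.45%), against 3.89%. Counted over the upstream bases alone, a CHR of either form stood in 12 of 29 windows (41.4%), against 17.1%, so many of the matches lie just after the gene start. These are letter matches, not tested sites, and the other promoters were not matched for base composition.

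The 200 bases before the gene start are printed for 6 genes, 5' to 3' on the gene's own strand, with CHR and CCAAT matches in capitals (TTCAAA and ATTGG are the same elements on the other strand). Cdc20 (chr4:118437344-118437543, minus strand) had the highest ratio of JC-M3 over JC-P and Ube2c (chr2:164769729-164769928, plus strand) the lowest of JC-P over JC-WT. Cdk1 (chr10:69352913-69353112, minus strand) is the central kinase. Mki67 (chr7:135716380-135716579, minus strand) and Cenpe (chr3:135212363-135212562, plus strand) were among the 5 genes that were higher in JC-P than in JC-WT. The RefSeq gene span of Mki67 reaches to 135716450, past the start used here (135716379), so part of its printed bases lies inside that span. Ccnb1 (chr13:100786487-100786686, minus strand) had the lowest ratio in JC-M3.
Cdc20: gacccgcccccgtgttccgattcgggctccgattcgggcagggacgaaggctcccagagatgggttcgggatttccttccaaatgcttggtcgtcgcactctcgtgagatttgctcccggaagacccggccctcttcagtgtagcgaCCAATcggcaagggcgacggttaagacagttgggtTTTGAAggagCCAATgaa
Cdk1: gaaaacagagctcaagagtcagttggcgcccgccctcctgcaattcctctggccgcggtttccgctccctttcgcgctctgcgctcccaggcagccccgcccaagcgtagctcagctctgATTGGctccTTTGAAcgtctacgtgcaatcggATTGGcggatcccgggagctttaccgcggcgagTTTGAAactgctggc
Ube2c: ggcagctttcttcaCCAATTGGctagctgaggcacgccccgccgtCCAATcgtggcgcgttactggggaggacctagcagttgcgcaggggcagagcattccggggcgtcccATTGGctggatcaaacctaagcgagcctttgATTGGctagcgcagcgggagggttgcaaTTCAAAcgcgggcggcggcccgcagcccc
Mki67: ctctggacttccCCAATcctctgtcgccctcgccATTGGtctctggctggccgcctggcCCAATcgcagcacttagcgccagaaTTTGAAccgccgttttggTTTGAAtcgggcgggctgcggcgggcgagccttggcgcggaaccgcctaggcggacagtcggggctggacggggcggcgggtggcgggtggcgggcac
Cenpe: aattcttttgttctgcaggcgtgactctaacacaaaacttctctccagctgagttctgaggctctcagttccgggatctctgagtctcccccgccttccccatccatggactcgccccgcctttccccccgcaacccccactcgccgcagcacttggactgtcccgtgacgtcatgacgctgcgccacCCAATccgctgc
Ccnb1: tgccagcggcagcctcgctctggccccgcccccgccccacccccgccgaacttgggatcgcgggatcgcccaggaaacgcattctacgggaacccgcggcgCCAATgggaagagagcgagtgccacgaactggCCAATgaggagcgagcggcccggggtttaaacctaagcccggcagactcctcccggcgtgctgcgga
In Cdc20 the CHR begins 18 bases before the start and is flanked by CCAAT boxes at 53 and 8 bases before it. Ube2c has its CHR 29 bases before the start, and 1 of its CCAAT boxes overlaps a second on the other strand. Neither the Cenpe nor the Ccnb1 window holds a CHR match, which says only that these letters are not in the window. The 21 genes with a CHR match and the 6 without had overlapping ratios, from -0.74 to 0.37 and from -0.54 to 0.33 on the log2 scale for JC-P over JC-WT.

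Wherever 3 values follow each other below, JC-WT comes first, then JC-P, then JC-M3. The read totals behind them were 18093426, 22132593 and 23386413. A feature was measured where its mean reached 1 TPM (a read level divided by gene length and scaled to the same total in every library) over the 3 libraries, which held for 14527 features and for 34 of the 34 genes. With 1 library per population no test was possible and no p-value was computed. Ratios are log2 values of TPM + 0.5, and the ranges beside them are 95% exact intervals that cover counting error only, not the spread between cultures. Of 14 epithelial markers 6 were measured, with summed levels of 1569, 1929 and 711 TPM that came mostly from the keratin gene Krt8. The sum hides members that went the other way, since the median ratio of JC-P over JC-WT was -0.53, with 4 of 6 below 0. Krt7 (-1.05), Ocln (-1.74) and Muc1 (-1.17) were at least 2-fold lower in JC-P, while Krt8 (0.32) and Elf3 (0.61) were above 0. For JC-M3 over JC-P the 6 were divided. Krt8 (-1.46), Krt18 (-1.38) and Ocln (-1.35) were below 0, and Krt7 (1.02), Muc1 (0.81) and Elf3 (0.18) above. The defining genes Epcam and Cldn7 had 0 reads in every library. Myeloid markers summed to between 51.3 and 73.2 TPM with Ptprc, Itgam, Adgre1 and Tyrobp at 0 reads, and 0 of 9 lymphoid markers were measured. Fibroblast markers, of which 7 of 10 were measured and Lum and Thy1 had 0 reads, summed to 222, 418 and 1093 TPM. Most of that sum was Col1a1 (132, 261 and 949 TPM). Pdgfrb (48.7, 46.5 and 87.9 TPM), Dcn (1.24, 14.0 and 22.5 TPM) and Col1a2 (0.255, 0.661 and 4.40 TPM) were highest in JC-M3 as well. In contrast, Col3a1 (3.99, 46.0 and 8.76 TPM) and Pdgfra (34.1, 47.6 and 20.1 TPM) were highest in JC-P, and Dpt (2.27, 2.12 and 0.254 TPM) was lowest in JC-M3. Endothelial markers, 4 of 9 measured and Kdr at 0 reads, summed to between 277 and 304 TPM, nearly all of it Eng. Within them Cdh5 (0.0887, 17.7 and 0.104 TPM) and Plvap (7.60, 17.8 and 2.71 TPM) were highest in JC-P, the library in which most of the mitotic genes were lowest. The other measured endothelial markers were not, with Egfl7 at 4.06, 3.31 and 2.61 TPM and Eng at 265, 265 and 273 TPM. The part of these other markers in the ratios below was not tested.

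The 34 genes were abundant in every population, and most stood lowest in JC-P. Their median level was 92.3, 69.8 and 103 TPM, and their summed level 4033, 3269 and 4432 TPM. JC-P held the lowest of the 3 values for 25 of the 34 genes, against 29.8% of all measured features, and the highest for 0 of 34, against 31.5%. JC-M3 held the highest value for 22 of 34, against 35.3%, and the lowest for 4, against 35.7%. JC-WT held the highest value for 12, against 33.2%, and the lowest for 5, against 34.5%. Since JC-P enters both the first step (JC-P over JC-WT) and the second (JC-M3 over JC-P), a single low or high value there moves both ratios, in opposite directions.

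**Figure D1:**
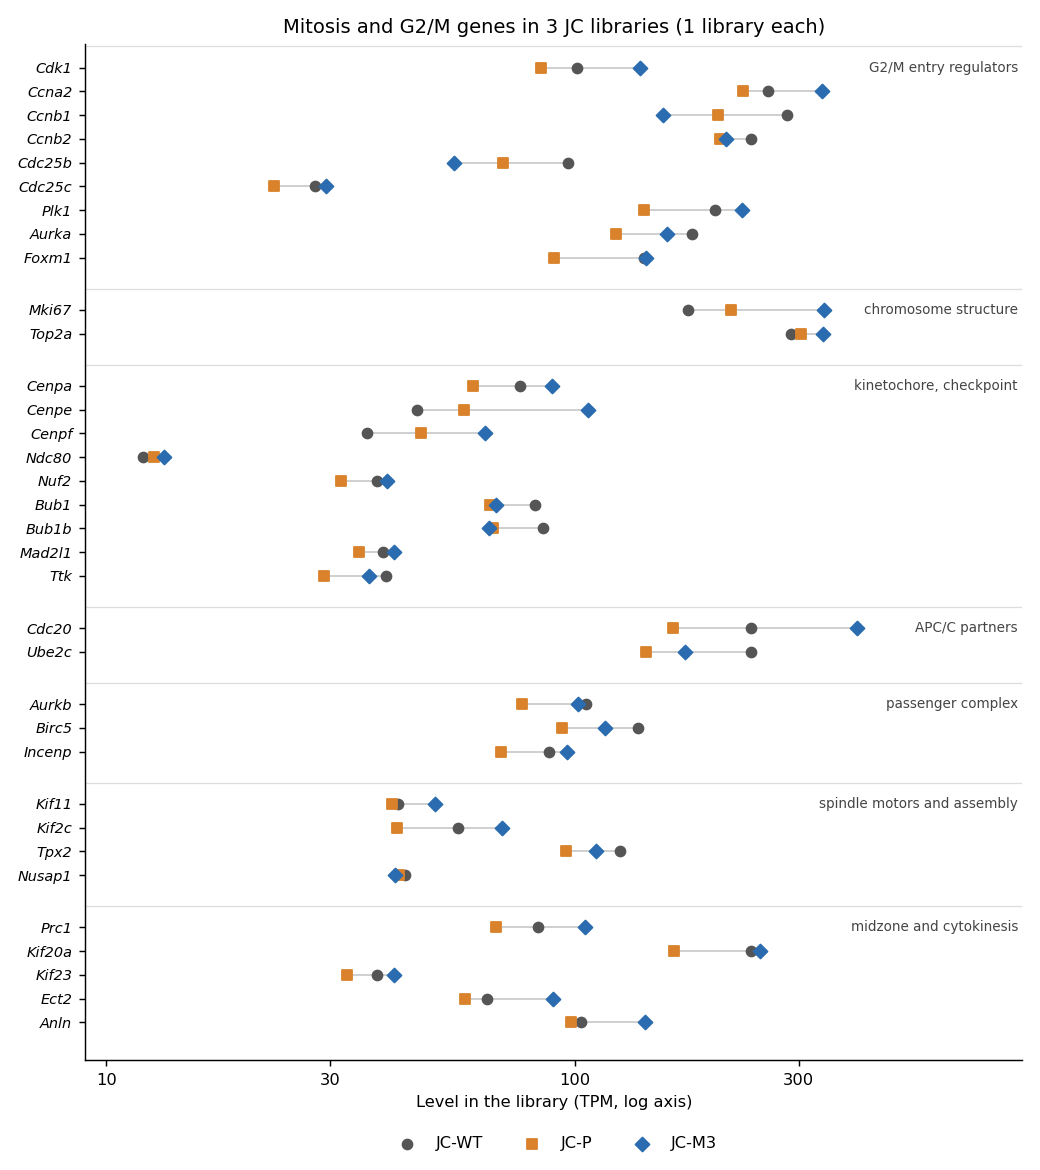
Level of each of the 34 genes (TPM, log axis) in the JC-WT, JC-P and JC-M3 libraries, grouped by role, with 1 library per population and a grey line spanning the 3 values. The JC-P squares are the lowest point for 25 of 34 genes, and JC-M3 has the highest point for 22.

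Genes that drive entry into mitosis were all lower in JC-P than in JC-WT, and 7 of the 9 were higher again in JC-M3. Cdk1, the mitotic kinase, stood at 101, 84.4 and 138 TPM. Its partner Ccna2, cyclin A2, stood at 257, 228 and 337 TPM. Both were thus highest in JC-M3 and lowest in JC-P. The B-type cyclins did not follow Cdk1 into JC-M3. Ccnb1, cyclin B1, stood at 283, 201 and 154 TPM, lowest in JC-M3, and Ccnb2, cyclin B2, at 237, 204 and 209 TPM, nearly level between JC-P and JC-M3. Of the 50-base windows of Ccnb1 transcripts, 23.4% also occur in other annotated transcripts, chiefly pseudogene copies, so its level is less certain. The phosphatase genes were divided in the same way. Cdc25b, which acts at the onset of mitosis, stood at 96.7, 70.2 and 55.1 TPM and was lowest in JC-M3, whereas Cdc25c stood at 27.8, 22.8 and 29.4 TPM and was lowest in JC-P. Among the kinases, Plk1 stood at 199, 140.1 and 227 TPM, and Aurka, Aurora A, at 178, 122 and 157 TPM. Foxm1, the transcription factor of G2/M genes, stood at 140.3, 90.0 and 141 TPM, so that JC-WT and JC-M3 were level and JC-P lower than both.

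The pair of genes of chromosome structure did not dip in JC-P. Mki67, which encodes the Ki-67 protein that coats mitotic chromosomes and serves as a proliferation marker, stood at 174, 215 and 339.6 TPM. Top2a, the topoisomerase that untangles sister chromatids, stood at 289, 303 and 338 TPM. Mki67 was therefore lowest in JC-WT and highest in JC-M3, while Top2a, the most abundant of the 34 genes in JC-WT and JC-P, differed little.

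Kinetochore genes split into a group that was higher in JC-P and a group that was lower. Cenpe, the kinetochore motor, stood at 46.0, 58.0 and 107 TPM, and Cenpf, a large kinetochore protein, at 36.0, 46.8 and 64.3 TPM. Ndc80, the microtubule-binding subunit, was the least abundant of the 34 genes in each library, at 12.0, 12.7 and 13.2 TPM from 417, 540 and 590 reads. Its partner Nuf2 stood at 37.8, 31.7 and 39.6 TPM and Cenpa, the centromeric histone, at 76.4, 60.6 and 89.4 TPM. The last pair had the dip in JC-P that Cenpe, Cenpf and Ndc80 lacked. Checkpoint kinase genes were lower in JC-P, and in JC-M3 they also stood below the JC-WT level. Bub1 stood at 81.9, 65.9 and 67.8 TPM and Bub1b, which encodes BUBR1, at 85.3, 66.7 and 65.6 TPM. Ttk, the kinase MPS1, stood at 39.4, 29.2 and 36.2 TPM. The checkpoint protein gene Mad2l1, at 39.0, 34.6 and 41.0 TPM, differed little.

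The widest swing belonged to a partner of the anaphase-promoting complex. Cdc20, its mitotic activator, stood at 238, 161 and 400.0 TPM, where it was the most abundant of the 34 genes. Ube2c, the enzyme that supplies ubiquitin to the complex, stood at 237, 142 and 172 TPM. So Cdc20 and Ube2c, level in JC-WT, were both low in JC-P and far apart in JC-M3. The chromosomal passenger complex corrects faulty attachments and guides cytokinesis. Its kinase Aurkb, Aurora B, stood at 105, 77.0 and 101 TPM, its subunit Birc5, survivin, at 136, 93.6 and 116 TPM, and its scaffold Incenp at 88.0, 69.4 and 96.2 TPM, lowest in JC-P in each case.

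Among the spindle genes Kif2c and Tpx2 dipped in JC-P, while Kif11 and Nusap1 differed little there. Kif11, the motor that separates the spindle poles, stood at 42.0, 40.6 and 50.3 TPM and Kif2c, the microtubule-depolymerizing kinesin MCAK, at 56.2, 41.8 and 69.8 TPM. Tpx2, the activator of Aurora A on the spindle, stood at 125, 95.5 and 111 TPM, while the microtubule bundling gene Nusap1 was level at 43.4, 42.2 and 41.2 TPM. Genes of the spindle midzone and of cytokinesis were lower in JC-P and highest in JC-M3 in 5 of 5 cases. Prc1, which bundles midzone microtubules, stood at 83.5, 67.7 and 105 TPM, and the midzone kinesin genes Kif20a and Kif23 at 238, 163 and 248 TPM and at 37.9, 32.6 and 41.1 TPM. Ect2, the activator of RhoA at the cleavage furrow, stood at 65.0, 58.2 and 89.8 TPM, and Anln, anillin of the contractile ring, at 103, 97.9 and 141 TPM. For Kif20a 25.2% of transcript windows are shared, with the overlapping gene Cdc23, for Ube2c 16.0%, for Cdc25c 11.9% and for Ccna2 11.4%. For Cdc20 the share is 10.6%, with Elovl1 and Gm7856 among the genes that hold the same windows, and for Plk1 it is 10.4%, with a pseudogene copy among them. The strand setting of the counting is not given in the sources used here, so part of those reads could belong to the other gene.

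For JC-P over JC-WT, which asks what differed in cells grown in the fat pad, the 34 genes had a median log2 ratio of -0.31, against 0.01 for all measured features. Ratios were below 0 for 29 of 34 genes, against 49.0% of measured features, and above 0 for 5, against 50.9%. The differences were small in size. Only Ube2c and Foxm1 were at least 1.5-fold lower (2 of 34, against 6.90%) and 0 were at least 1.5-fold higher (against 12.0%). At 2-fold the counts were 0 lower and 0 higher, against 2.33% and 4.76%. The counting interval lay wholly below 0 for 27 of 34 genes (against 28.1%) and wholly above 0 for 4 (against 27.2%), so most of the small differences exceeded counting error. The lowest ratios were those of Ube2c, at -0.74 (-0.82 to -0.67), Foxm1, at -0.64 (-0.71 to -0.58), and Cdc20, at -0.56 (-0.65 to -0.47). The highest were those of Cenpf, at 0.37 (0.31 to 0.45), Cenpe, at 0.33 (0.26 to 0.42), and Mki67, at 0.30 (0.26 to 0.34).

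For JC-M3 over JC-P, which asks what differed after selection in the lung, the median was 0.36, against -0.01 for all measured features. Ratios were above 0 for 30 of 34 genes, against 49.2% of measured features, and below 0 for 4, against 50.7%. Past 1.5-fold the share of higher genes was larger than the background and that of lower genes smaller. Cdc20, Cenpe, Kif2c, Cdk1, Plk1, Mki67, Foxm1, Prc1, Ect2 and Kif20a were at least 1.5-fold higher (10 of 34, against 10.0%), and 0 were at least 1.5-fold lower (against 13.3%). Cdc20 alone passed 2-fold (1 of 34 higher, against 3.82%, and 0 lower, against 5.38%). Counting intervals lay above 0 for 27 genes (against 29.5%) and below 0 for 2 (against 30.1%). Cdc20 had a ratio of 1.31 (1.23 to 1.38), Cenpe 0.87 (0.82 to 0.94) and Kif2c 0.73 (0.64 to 0.84). At the other end stood Ccnb1, at -0.39 (-0.44 to -0.33), Cdc25b, at -0.35 (-0.45 to -0.25), and Nusap1, at -0.03 (-0.15 to 0.09). The regulators of mitotic entry thus held both the kinase genes with higher levels and the only pair of genes whose intervals lay below 0.

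Between the end points, JC-M3 over JC-WT, the median was 0.10, against 0.00 for all measured features, and the genes were divided, with 22 of 34 above 0 (against 50.1%) and 12 below (against 49.7%). At least 1.5-fold higher were Cenpe, Mki67, Cenpf and Cdc20 (4 of 34, against 14.0%), and at least 1.5-fold lower were Ccnb1 and Cdc25b (2 of 34, against 12.5%). Both shares lie below the background. Cenpe passed 2-fold (1 of 34, against 6.14%) and 0 were 2-fold lower (against 5.27%). Intervals lay above 0 for 17 genes (against 29.6%) and below 0 for 10 (against 30.5%). Cenpe stood at 1.21 (1.14 to 1.29), Mki67 at 0.96 (0.93 to 1.00) and Cenpf at 0.83 (0.77 to 0.90). Ccnb1 stood at -0.87 (-0.93 to -0.82), Cdc25b at -0.81 (-0.91 to -0.71) and Ube2c at -0.47 (-0.54 to -0.40). All 3 comparisons share libraries in pairs, so their values are given side by side and are not separate evidence.

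**Figure D2:**
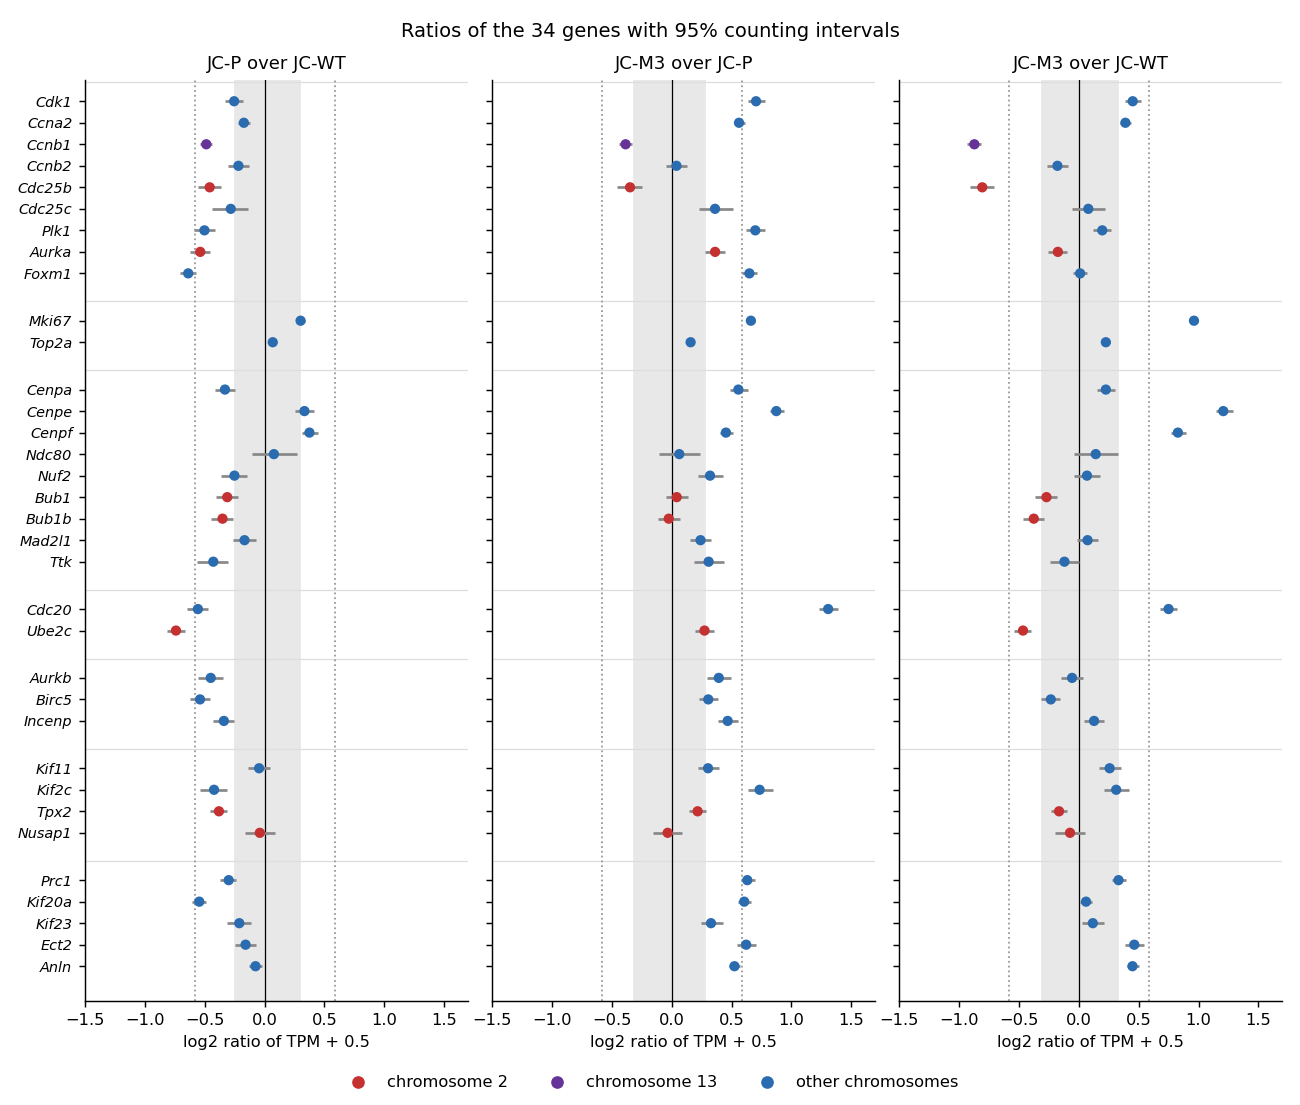
Log2 ratio of TPM + 0.5 of each gene in the 3 comparisons (points), with 95% counting intervals (grey bars), 1.5-fold marked by dotted lines and the middle quartiles of all 14527 measured features shaded. Points lie mostly left of 0 for JC-P over JC-WT (29 of 34) and right of 0 for JC-M3 over JC-P (30 of 34), and the genes on chromosomes 2 and 13 lie to the left of most others in the JC-M3 panels.

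Of the 12 genes that were below 0 for JC-M3 over JC-WT, 7 lay on chromosome 2 and 1, Ccnb1, on chromosome 13, a property that the choice of genes did not use. The others were Birc5 and Aurkb on chromosome 11 and Ccnb2 and Ttk on chromosome 9. Chromosome 2 carries 7 of the 34 genes, Bub1b, Nusap1, Bub1, Cdc25b, Tpx2, Ube2c and Aurka, and chromosome 13 carries Ccnb1. For JC-M3 over JC-P the 7 genes on chromosome 2 had ratios from -0.35 to 0.36 with a median of 0.04, and the 26 genes on neither chromosome had ratios from 0.04 to 1.31 with a median of 0.50, 26 of them above 0. This split was chosen after the values were seen and gets no test. Each gene was therefore set beside the 20 nearest measured protein-coding genes on its chromosome. Around Ccnb1 (chromosome 13, 100778650 to 100786570, minus strand, GRCm38) all 20 neighbours, reaching out to 1.46 Mb, had ratios of JC-M3 over JC-P below 0, with a median of -0.85. Ccnb1 itself, at -0.39, thus lay 0.46 above its neighbours. For JC-M3 over JC-WT the same neighbours had a median of -0.99 against -0.87 for Ccnb1, so the lowest of the 34 genes stood in a region that was low as a whole. The median over chromosome 13 was -0.52 at the second step, and in the segment from 100 to 110 Mb 38 of 38 measured genes were below 0. Other mitotic genes there were low in JC-M3 as well. The kinetochore gene Cenph, next to Ccnb1 at 100759674 to 100775899, stood at 43.0, 37.1 and 17.1 TPM. Cenpk, another kinetochore gene, stood at 7.69, 7.83 and 4.18 TPM, and the kinesin gene Kif2a had a ratio of -0.76 among neighbours with a median of -0.81.

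Around Cdc25b on chromosome 2 the neighbours had a median of -0.27 at the second step and -0.66 between JC-M3 and JC-WT, against -0.35 and -0.81 for the gene. Nusap1, level in itself at -0.03, lay among neighbours with a median of -0.42. The median of chromosome 2 was -0.23 for JC-M3 over JC-P. Conversely Cdk1 lay in a region of chromosome 10 with a median of 0.46 at the second step, so that 0.24 of its 0.70 remained above its neighbours, while Cdc20 exceeded its neighbours by 1.03. Relative to neighbours, 32 of 34 genes were higher in JC-M3 than in JC-P, Cdc25b and Ndc80 being the exceptions, and 28 of 34 were lower in JC-P than in JC-WT. The matching shares over all measured features were not computed, so these counts have no background beside them. Across the 34 genes, ratio and neighbour median had a Spearman correlation of 0.65 at the second step and 0.31 at the first. It is given as a description, since genes on a chromosome share neighbours and libraries. What sets the level of these regions was not tested.

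**Figure D3:**
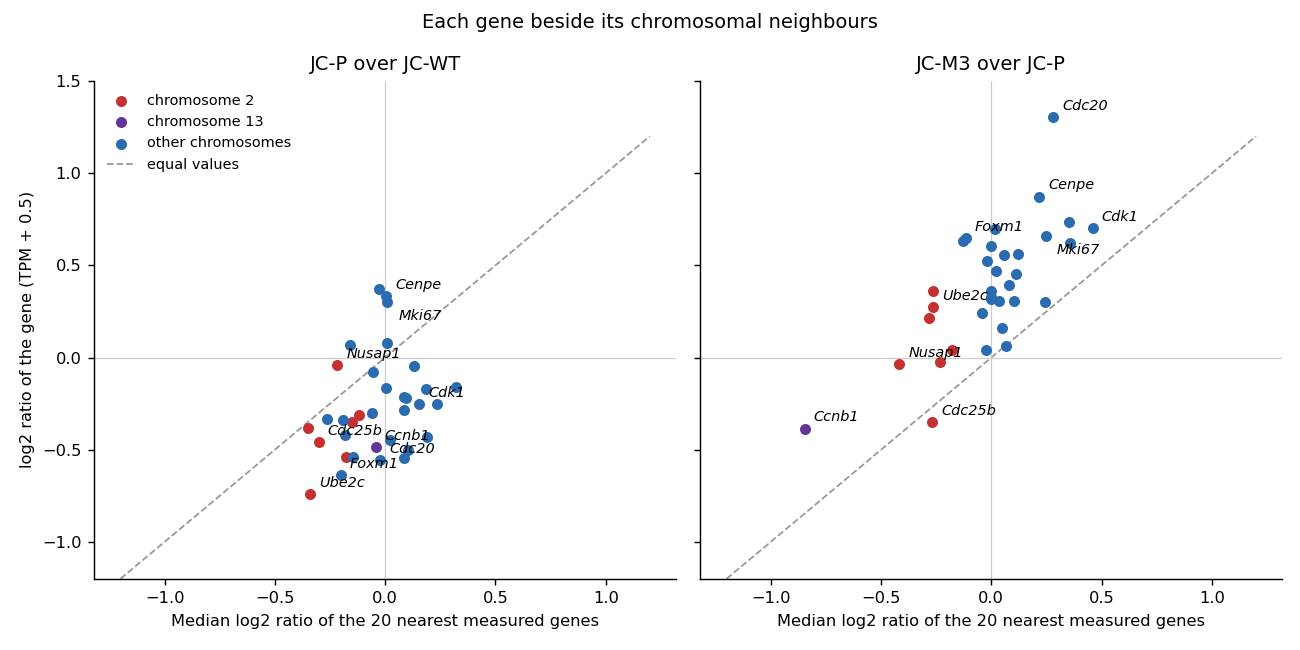
Log2 ratio of each of the 34 genes (vertical axis) against the median log2 ratio of its 20 nearest measured protein-coding genes (horizontal axis), for JC-P over JC-WT and JC-M3 over JC-P, with a dashed line of equal values. In the JC-M3 panel 32 of 34 points lie above the line, Ccnb1 among them at -0.39 against -0.85. The share of all measured features above such a line was not computed.

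The 4 genes whose intervals lay above 0 in JC-P over JC-WT had large merged exon lengths. This length joins the exons of all annotated transcripts of a gene, so it can exceed the length of any single transcript. Cenpf has a merged exon length of 15433 bases, Mki67 10061, Top2a 9013 and Cenpe 8620, whereas Ube2c has 2600 and Cdc20 1868. Among other genes with a large merged exon length, Anln (9063 bases, ratio -0.08), Mad2l1 (8390 bases, -0.17) and Prc1 (8225 bases, -0.30) were lower in JC-P. Over the 34 genes, exon length and the ratio of JC-P over JC-WT had a Spearman correlation of 0.70, against 0.13 over all 11405 measured protein-coding genes. These are correlations across genes, which are not independent replicates. The median ratio of all measured protein-coding genes went from -0.07 in the shortest sixth to 0.09 in the longest, while that of the mitotic genes in the same length classes went from -0.50 (3 genes) to 0.18 (6 genes). For JC-M3 over JC-P the correlation over the 34 genes was 0.18, against 0.06 over all genes, and between JC-M3 and JC-WT it was 0.57, against 0.14. The part of length in the higher levels of Cenpe, Cenpf and Mki67 in JC-P was not tested.

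**Figure D4:**
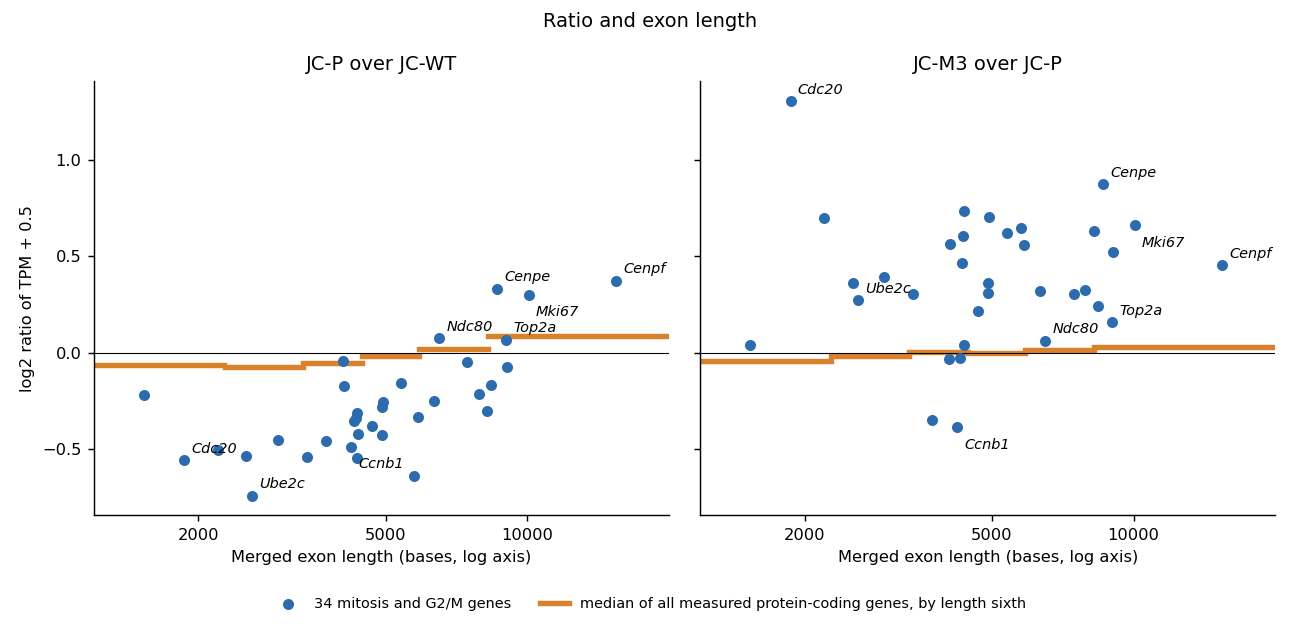
Log2 ratio of TPM + 0.5 against merged exon length (bases, log axis) for the 34 genes (points), with the median of all measured protein-coding genes in each sixth of the length distribution (orange lines, clipped to the plotted range). For JC-P over JC-WT the points climb with length from Ube2c at -0.74 to Cenpf at 0.37, more steeply than the orange lines.

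Other genes of the mitotic machinery, from lists set alongside the 34, are given by their counts and medians. Of 37 further kinetochore and centromere genes 30 were below 0 for JC-P over JC-WT (median -0.21) and 30 above 0 for JC-M3 over JC-P (median 0.30), against 49.0% and 49.2% of all measured features. At the first step 2 were at least 1.5-fold lower (against 6.90%), and at the second 4 were higher (against 10.0%) and 2 lower (against 13.3%), so the share past 1.5-fold was near or below the background. Their extremes at the first step were Ska3 (-0.62), Dsn1 (-0.60) and Sgo2a (0.40), and at the second Cenph (-1.10), Cenpk (-0.83), Cenpm (0.91) and Cdca8 (0.93), a passenger complex subunit. The 26 further spindle and cytokinesis genes had medians of -0.19 and 0.41, with 19 below 0 at the first step and 23 above 0 at the second. At the second step 5 were at least 1.5-fold higher (against 10.0%) and 1 lower (against 13.3%). Psrc1 (1.10) and Gtse1 (0.98) were highest and Kif2a (-0.76) and Ckap5 (-0.10) lowest there, while Dlgap5 (-0.47), Troap (-0.42), Kif20b (0.16) and Psrc1 (0.30) marked the ends of the first.

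Condensin, cohesin and separase genes (19) had medians of -0.02 for JC-P over JC-WT and 0.28 for JC-M3 over JC-P. At the first step 0 were at least 1.5-fold higher (against 12.0% of all measured features) and 0 lower (against 6.90%). At the second step 3 were higher (against 10.0%) and 0 lower (against 13.3%). The separase gene Espl1 (0.78) and the condensin gene Smc2 (0.63) were highest at the second step, and the cohesin genes Stag2 (-0.53) and Stag1 (-0.28) lowest. At the first step Smc4 (0.25) and Stag2 (0.24) stood at the top and Cdca5 (-0.46) and Ncaph (-0.42) at the bottom. The 17 genes of the anaphase-promoting complex and its regulators had medians of -0.32 and 0.04. Their first step ran from Anapc16 (-0.57) and Anapc1 (-0.55) to Cdc27 (0.23) and Anapc10 (0.32). At the second step Fbxo5, which encodes the inhibitor EMI1, was the only member at least 1.5-fold higher (1 of 17, against 10.0%). It stood at 67.1, 50.9 and 103 TPM (1.01), followed by Anapc16 (0.56). Anapc2 (-0.53) and Anapc4 (-0.08) were lowest, and 0 were at least 1.5-fold lower (against 13.3%). The 17 further kinases and phosphatases of mitotic entry had medians of -0.23 and 0.29. At either step 0 of them passed 1.5-fold in either direction, against the same shares of all measured features. The list ran from Pbk (-0.52) and Pkmyt1 (-0.38) to Arpp19 (0.19) and Mastl (0.33) at the first step. At the second it ran from Ppp2r2a (-0.51) and Arpp19 (-0.33) to Plk4 (0.49) and Wee1 (0.51).

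Genes of the G1/S transition and DNA replication were set beside the mitotic genes to see how far the dip reached. Of 37 such genes 33 were below 0 for JC-P over JC-WT, against 49.0% of measured features, with a median of -0.43 and 9 at least 1.5-fold lower (against 6.90%). At the second step 29 were above 0 (against 49.2%), with a median of 0.36 and 10 at least 1.5-fold higher (against 10.0%). Their median between JC-M3 and JC-WT was -0.01. Rrm2, a subunit of ribonucleotide reductase, stood at 313, 171 and 270 TPM, the lowest ratio at the first step (-0.87), next to Cdc6 (-0.77), while Pola1 (0.20) and the cyclin gene Ccnd2 (0.38) were highest. Cdt1, a replication licensing factor, stood at 73.2, 46.1 and 84.4 TPM, the highest ratio at the second step (0.87), next to Orc1 (0.86), with Cdk6 (-0.27) near the low end. Whether the replication and mitotic lists differ in size of shift was not tested.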

How the data were processed

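The authors deposited 1 table of TPM per gene, with 1 column per library, per the file headers. FastQC 0.11.9, STAR 2.7.9a and featureCounts, with the builds mm10 and GRCm38, are named in the submitters' processing notes. The sources used here do not give the annotation release, the strand setting or the formula for TPM. Read numbers were recovered from TPM and merged exon lengths (GENCODE M21, GRCm38), and came out whole within 0.01 for 98.4% to 98.5% of expressed genes. They gave exact conditional (Clopper-Pearson) 95% intervals. Reads that are duplicates are not independent molecules, so the intervals cover counting error only. Ratios used a pseudocount of 0.5 TPM and a minimum mean of 1 TPM. Each group has 1 library, so no test was run. The genes and lists were chosen with earlier results of these data known. The text gives every one of the 34 genes, intervals for the 3 highest and 3 lowest ratios of each comparison, and the 2 highest and 2 lowest members of each further list. A few of those list members are not reported here. Promoter windows and starts came from RefSeq on GRCm38.p6, and shared sequence was searched in 50-base windows of GENCODE M21 transcripts on both strands. The recovery of reads, the ratios, the 1.5-fold calls and the intervals were tested on simulated reads. The promoter, shared sequence, neighbour and length steps were not tested in that way. Tables were handled in pandas 2.3.3 and numpy 2.4.6 (Python 3.11.15), intervals computed in scipy 1.17.1 and plots drawn in matplotlib 3.10.9.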

Additional observations from a re-analysis of the deposited data

How the results depend on the processing

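The medians and the 1.5-fold counts of the 3 comparisons were recomputed with pseudocounts of 0.1 and 2, with the median of all features set to 0, with trimmed means of log ratios, without mitochondrially encoded features, with chromosome medians subtracted, with a minimum mean of 10 TPM and with none. An alternative chosen after seeing the data subtracted the median of the 20 nearest genes. Of 81 recomputed values 79 stayed within counting error or within 1.5 times the count reported. The exceptions were the 2 genes at least 1.5-fold lower for JC-M3 over JC-WT, which became 0 with chromosome medians subtracted and 0 with the 20 nearest genes subtracted. With the latter, the JC-M3 over JC-WT ratio of Ccnb1 turned from -0.87 to 0.12, and 15 of 34 genes changed sign in that comparison, against 1 of 34 for JC-P over JC-WT and 4 of 34 for JC-M3 over JC-P. Counts were compared by size, so the genes behind them could change. With the 20 nearest genes subtracted, Plk1, Ttk and Kif20a were at least 1.5-fold lower for JC-P over JC-WT, and Ube2c and Foxm1 were not. For JC-M3 over JC-P, Cdk1, Kif2c, Mki67 and Ect2 fell below 1.5-fold and Aurka passed it. Among 102 single gene ratios 70 moved by more than counting error. Of the ratios past 1.5-fold as reported, 1 reversed its sign, that of Ccnb1 for JC-M3 over JC-WT. With chromosome medians subtracted 40 moved. Apart from the neighbour setting, the median of all features reached at most 0.02 on the log2 scale. No paired analysis was possible because each population has 1 library, and for the same reason no library could be left out. The counting intervals cover depth alone, and the spread between cultures was not measured.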

Other observations

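Regulators upstream of the mitotic program were measured as well. Of 22 genes of the E2F, RB and MuvB machinery 14 were below 0 for JC-P over JC-WT (median -0.16), against 49.0% of all measured features. For JC-M3 over JC-P 16 were above 0 (median 0.25), against 49.2%. At each step 2 genes were at least 1.5-fold higher and 2 lower. These 1.5-fold counts are near the shares over all measured features, 12.0% higher and 6.90% lower at the first step and 10.0% and 13.3% at the second. Mybl2, which encodes B-MYB, stood at 34.9, 18.9 and 23.6 TPM (JC-WT first, then JC-P, then JC-M3), the lowest ratio of the list at the first step (-0.86). The repressor gene E2f8 stood at 55.5, 36.0 and 55.3 TPM, and E2f7 at 12.1, 10.9 and 19.9 TPM. Rb1, the retinoblastoma gene, stood at 11.0, 19.2 and 10.7 TPM and the activator gene E2f2 at 13.8, 21.7 and 11.7 TPM, both highest in JC-P, where most of the mitotic genes were lowest. A link between these regulators and the mitotic genes was not tested.

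Of 8 cyclin-dependent kinase inhibitor genes 7 were measured, with medians of 0.07 for JC-P over JC-WT and -0.02 for JC-M3 over JC-P. Cdkn2b, which encodes p15, stood at 142, 197 and 92.5 TPM, the only member past 1.5-fold at the second step (-1.09). That is 1 of 7 lower, against 13.3% of measured features, and 0 higher, against 10.0%. The neighbour of Cdkn2b, Cdkn2a, stood at 757, 797 and 563 TPM. Cdkn1a, which encodes p21, was low throughout at 3.36, 5.14 and 5.00 TPM and had the highest ratio at the first step (0.55). Cdkn3 (-0.34) and Cdkn2d (-0.23) were lowest at the first step, and Cdkn2c (0.24) and Cdkn2d (0.08) highest at the second. Whether these levels bear on the mitotic genes was not tested.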
